A study of Homo sapiens with 8 samples.

Results

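The genes described here encode the proteins of the cytosolic ribosome. They were the 82 genes whose symbols begin with RPL or RPS followed by a number, with A, X or L allowed at the end, together with RPSA and the stalk genes RPLP0, RPLP1 and RPLP2. All 82 were in the NCI-H716 tables, which list 63241 genes. The HCT116 count table available for this work ends early on chromosome 9 and lists 28043 genes, so 31 of the 82 had values in that line. The libraries were made from HCT116 and NCI-H716, established lines of human colorectal carcinoma cells, as untreated control and after ZINC000101867325 (Z325), a small molecule picked by docking against the kinase domains of the fibroblast growth factor receptors. The treated libraries carry the label Test, and the study set 1 working concentration for its cell experiments from viability curves. The hours of exposure of the sequenced cells are not given in the sources used here. Each of the 4 groups held 2 libraries, which the study calls biological duplicates, and each library was made by amplifying the cDNA of about 100 cells with a SMART-Seq2 kit. Such libraries read polyadenylated RNA without strand, so they report the amount of ribosomal protein mRNA and not its translation.

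A ribosome is built from a small subunit, which reads the mRNA, and a large subunit, which joins amino acids, and each protein is present in 1 copy except those of the flexible stalk that recruits the elongation factors. Cells therefore make the ribosomal proteins in matched amounts. Vertebrate ribosomal protein mRNAs begin with a terminal oligopyrimidine tract (TOP), a C followed by an unbroken row of C and T, through which mTORC1 and the binding protein LARP1 adjust their translation to growth factor supply.

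This start was looked for in the RefSeq promoter windows (GRCh38.p14), which had an entry for 65 of the members. On the transcribed strand, a C with at least 4 further pyrimidines lay exactly at an annotated start in 46 of 65 members (70.8%), against 6.24% of 15843 protein-coding genes, where a gene counts if any of its listed starts has the tract. Within 10 bases of a start the shares were 89.2% and 41.1%, and a tract of 8 or more was found in 76.9% and 12.8%. The windows below belong to the members on which the NCI-H716 results turn and to a paralog pair, and run from 10 bases before the start to 20 bases from it on, with the longest tract near the start in capitals.

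RPS26 (chr12:56041908-56041937, plus strand): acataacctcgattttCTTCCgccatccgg
RPL36 (chr19:5690285-5690314, plus strand): cggcgccagCCCTTCCgccacggccgtctc
RPL29 (chr3:51995876-51995905, minus strand): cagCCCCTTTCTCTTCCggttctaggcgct
RPS15 (chr19:1438386-1438415, plus strand): aggcgcggaccaaagcgatCTCTTCTgagg
RPS3A (chr4:151099618-151099647, plus strand): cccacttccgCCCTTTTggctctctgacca
RPS4X (chrX:72277229-72277258, minus strand): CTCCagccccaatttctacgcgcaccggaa
RPL3 (chr22:39319604-39319633, minus strand): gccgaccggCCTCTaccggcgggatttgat
RPS27 (chr1:153990752-153990781, plus strand): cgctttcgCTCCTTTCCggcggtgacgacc
RPS27L (chr15:63157458-63157487, minus strand): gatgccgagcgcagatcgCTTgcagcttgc

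RPL29, RPL36, RPS3A and RPS27 had a tract over the start, whereas for RPS26 and RPS15 it lay a few bases further in, and RPS4X and RPS27L had no tract of 5 in the window. A missing tract says only that these letters are not near this annotated start. The median log2 fold change after Z325 was 0.24 for the 50 members with a tract of 8 or more and 0.34 for the 14 without one in NCI-H716. Their ranges overlapped, from -0.56 to 0.48 and from -0.65 to 0.62.

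Library totals were 13183792 to 13396225 gene counts for 3 of the HCT116 libraries and 3434620 for Z325 replicate 2, and 10210243 to 19738848 for NCI-H716. The epithelial marker EPCAM was present in both lines. In HCT116, VIL1 was under 1 FPKM (counts per length and depth), and SCG2 alone of 4 listed enteroendocrine genes was over it. In NCI-H716, CDX2, KRT8, KRT18 and VIL1 were over 1 TPM (transcript level corrected for length and depth, from RSEM). The epithelial genes CDH1, CEACAM5 and KRT20 were under it. NCI-H716 held the enteroendocrine genes CHGA, GCG, PCSK1 and SCG2, with NEUROD1 and PYY under 1 TPM. The leukocyte markers summed to at most 0.87 TPM and the endothelial markers to at most 0.01 TPM in NCI-H716. Its fibroblast list summed to 448 and 593 TPM in controls and 639 and 792 TPM in treated cells, carried by VIM and COL3A1, with COL1A1 and COL1A2 under 1 TPM. Its epithelial list summed to 426 and 441 TPM in controls and 357 and 363 TPM in treated cells, and its enteroendocrine list to 1988 and 2451 against 1529 and 1738 TPM. The part of these shifts in the results below was not tested.

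The question for each line was whether Z325 changed the mRNA of the ribosome's proteins. As a share of all counts, the members made up 6.61% and 6.05% in the HCT116 controls and 6.79% and 6.15% after Z325. These values interleave, and the difference was far within the spread (exact permutation test, two-sided p = 0.667; 2 against 2 libraries cannot go below 0.3333). In NCI-H716 the share was 7.11% and 7.48% in controls and 7.32% and 9.68% after Z325. Treated replicate 2 stood above the other 3 libraries, while treated replicate 1 lay between the controls (exact p = 0.667). The shares of the lines are not alike, because that of HCT116 covers only the genes listed for it. On chromosomes 1 to 8 alone, the NCI-H716 share was 5.58% and 5.80% in controls and 5.82% and 7.82% after Z325. There both treated libraries were above both controls, replicate 1 by little (exact p = 0.3333, the smallest possible). Fewer cells of a kind and less RNA per cell cannot be told apart in such bulk samples.

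**Figure D1:**
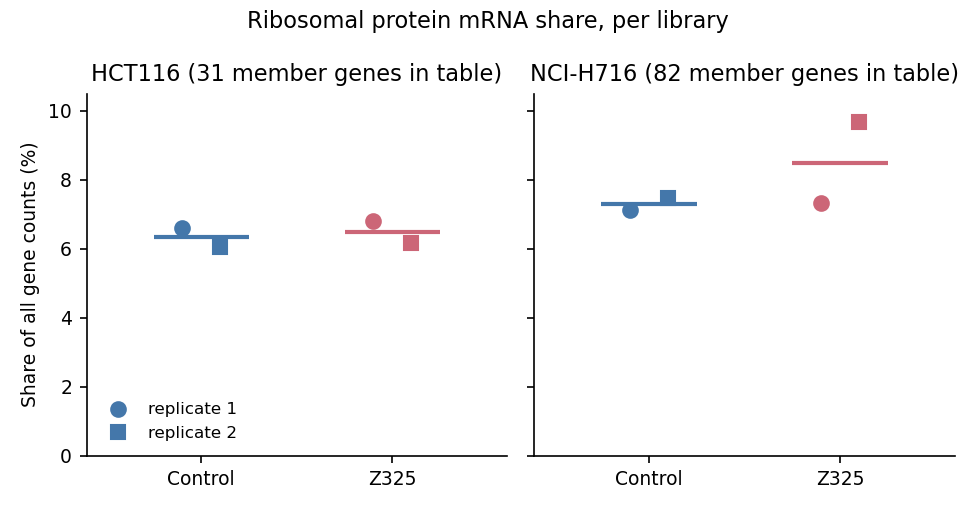
Share of all gene counts (percent, vertical axis) taken by the ribosomal protein genes in each library of HCT116 (31 genes in the table) and NCI-H716 (82 genes), with a line at each group mean. The HCT116 groups interleave between 6.05% and 6.79%, and in NCI-H716 only Z325 replicate 2, at 9.68%, stands away from the others. The panels cover unlike sets of genes, so their heights are not comparable.

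No member passed the test in either line. In HCT116, 29 of the 31 members had enough counts to be tested, and 0 were called at an adjusted p under 0.05 by edgeR's quasi-likelihood test with Benjamini-Hochberg adjustment over all genes, where 5.78% of the 6491 tested genes were called (2.83% higher and 2.94% lower). Without adjustment, 2 members passed 0.05 as higher and 2 as lower, against 11.2% and 12.7% of all genes. In NCI-H716, 80 members were tested and 0 were called, where the background was 0.502% of 14142 genes (0.403% higher and 0.099% lower). Without adjustment, 14 members passed 0.05 as higher and 5 as lower, against 7.59% and 9.27% of all genes. DESeq2 called 0 in both lines, where it called 4.78% of all fitted genes in HCT116 and 0.989% in NCI-H716, with 2 members higher and 2 lower in HCT116 and 17 higher and 5 lower in NCI-H716 unadjusted. On log2(FPKM + 1), limma called 0 as well, where 0.724% and 0.0424% of all genes were called, with 1 higher and 2 lower and with 8 and 1 unadjusted.

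The members as a group had a median slightly above that of all genes. In HCT116 their median log2 fold change (Z325 over control) was 0.10, with 20 of 29 above 0, beside a median of -0.03 and 48.2% above 0 for all genes. In NCI-H716 the median was 0.24, with 62 of 80 above 0, beside -0.01 and 49.4%. By subunit, the 48 large-subunit members of NCI-H716 had a median of 0.24 and the 32 small-subunit members 0.26. The groups of libraries were apart, both treated above both controls, for 29 of 80 members in NCI-H716 (24.3% of all genes) and the other way round for 12 (25.1% of all genes). In HCT116 there were 5 members apart in each direction, where 24.8% and 29.0% of all genes were.

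These medians moved with single libraries. In NCI-H716, the median over members of log2 CPM (counts relative to the library's total, scaled by TMM, the trimmed mean of M-values) relative to the control mean was 0.00 in Z325 replicate 1, with 40 of 80 members above the controls, and 0.43 in Z325 replicate 2, with 63 of 80. Without Z325 replicate 2 the median log2 fold change was 0.02. Without Z325 replicate 1 it was 0.44, and the test then called 26 members higher and 4 lower, in a fit that called 9.26% of all genes and took the lone treated library to vary as the controls did. In HCT116 it was replicate 1 that lay higher, with a median of 0.21 against -0.03 in replicate 2, the shallowest library. The HCT116 median log2 fold change was 0.23 without Z325 replicate 2, -0.04 without Z325 replicate 1, 0.01 without control replicate 2 and 0.17 without control replicate 1. Leaving out HCT116 Z325 replicate 1 gave 1 call higher and 2 lower, and leaving out replicate 2 gave 5 and 1, in fits that called 14.2% and 15.2% of all genes.

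**Figure D2:**
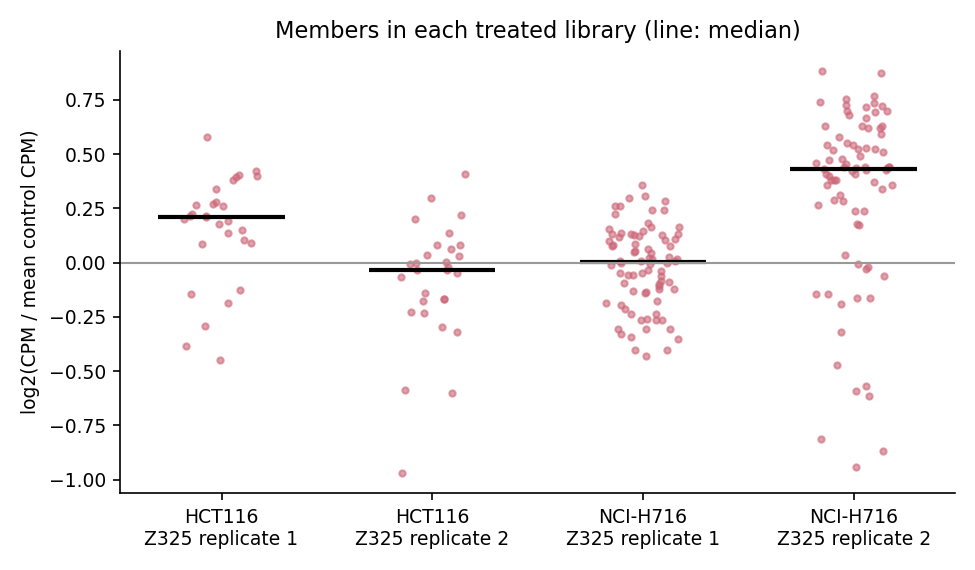
Each point is a tested ribosomal protein gene, placed by the log2 ratio of its scaled counts (CPM) in a treated library to the mean of the controls of that line, for 29 genes in HCT116 and 80 in NCI-H716, with a line at the median. The medians are 0.21 and -0.03 in HCT116 and 0.00 and 0.43 in NCI-H716, and NCI-H716 replicate 2 has the broadest scatter.

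Within NCI-H716 the members' log2 fold changes lay on both sides of 0, and 0 members were called. The values that follow are CPM. RPS26, a small-subunit protein at the mRNA exit whose loss causes Diamond-Blackfan anaemia, was at 1125 and 931 in controls and 779 and 536 after Z325. Both treated libraries were below both controls, and the log2 fold change was -0.65 (SE 0.20, adjusted p = 0.175). RPL36, of the large subunit, was at 820 and 663 in controls and 550 and 422 in treated cells. Its groups were likewise apart, at a log2 fold change of -0.61 (SE 0.19, adjusted p = 0.170). RPL29, a large-subunit protein that mice can live without, stood at 328 and 241 and then at 230 and 156, with a log2 fold change of -0.56 (SE 0.22, adjusted p = 0.244). RPS15, whose tail reaches the decoding centre, read 1353 and 1217 in controls against 971 and 866 (log2 fold change -0.48, SE 0.16, adjusted p = 0.188). All 4 had lower CPM in each treated library than in either control, although the treated libraries differed among themselves, and none passed the threshold. They were picked for low log2 fold changes in these same libraries, so groups apart are no further support. Of all genes, 25.1% had both treated libraries below both controls, and of the 80 tested members 12 did.

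At the other end stood RPS3A, a protein of the small subunit's platform. It was at 1540 and 1933 in controls and 2131 and 3204 after Z325 (log2 fold change 0.62, SE 0.21, adjusted p = 0.200). Here the treated libraries were apart from the controls, but lay further from each other than the controls did. RPS4X, the X-linked form of another small-subunit protein, was at 567 and 695 in controls against 747 and 1156 (log2 fold change 0.59, SE 0.21, adjusted p = 0.221). RPL5, which carries the 5S RNA into the large subunit and can bind MDM2, was at 1376 and 1547 against 1753 and 2485 (log2 fold change 0.54, SE 0.19, adjusted p = 0.213). RPL3, which reaches towards the peptidyl transferase centre, was at 993 and 1090 against 1248 and 1742 (log2 fold change 0.52, SE 0.19, adjusted p = 0.214). Each had its highest value in Z325 replicate 2, and each was picked for its high log2 fold change in these same libraries. RPL7, a large-subunit protein, was the fifth, with 1961 and 2307 against 2491 and 3452 (log2 fold change 0.48, SE 0.19, adjusted p = 0.250). The remaining members lay between these ends, and SE ranged from 0.15 to 0.22.

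When genes of any low count were kept, edgeR called 4 members higher (RPS3A, RPS4X, RPL5 and RPL3) and 2 lower (RPS26 and RPL36) in NCI-H716, where 2.43% of 31956 genes were called. The same 6 were among those called without Z325 replicate 1, and with a minimum of 10 counts in every library 0 were called.

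In HCT116 the lowest was RPL8, a protein beside the peptidyl transferase centre, at 2110 and 2531 CPM in controls and 1897 and 1532 after Z325. The log2 fold change was -0.44 (SE 0.15, adjusted p = 0.134). RPL29 was at 1044 and 1376 against 886 and 985 (log2 fold change -0.37, SE 0.16, adjusted p = 0.195), so this gene was on the low side in both lines. RPSA, RPL5 and RPL15 followed at -0.26, -0.22 and -0.18, all with both treated libraries below both controls. These too were picked for their log2 fold changes, and 29.0% of all genes had both treated libraries below both controls. The highest was RPS20, a small-subunit protein, at 1919 and 1680 CPM in controls and 2374 and 2213 in treated cells, where the log2 fold change was 0.35 (SE 0.13, adjusted p = 0.148). RPS27, RPL9, RPL31 and RPL7 followed at 0.31, 0.30, 0.25 and 0.24. Of these, RPL9 alone had its treated libraries apart from the controls.

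Among members with particular roles, none was called. RPL11, the partner of RPL5 in 5S RNA and MDM2 binding, was at 1165 and 1096 CPM in HCT116 controls against 1199 and 1001, and at 499 and 562 against 576 and 897 in NCI-H716. Its log2 fold changes were -0.04 (SE 0.13) and 0.47 (SE 0.21, adjusted p = 0.291). The stalk genes RPLP0, RPLP1 and RPLP2, measured in NCI-H716, had log2 fold changes of 0.20, 0.00 and 0.18, with overlapping groups. RPS19, the gene most often mutated in Diamond-Blackfan anaemia, was at 1303 and 1169 against 1127 and 1212 (log2 fold change -0.08, SE 0.16). RPS14, which is lost in the 5q deletion syndrome, had log2 fold changes of -0.00026 (SE 0.16) in HCT116 and -0.06 (SE 0.16) in NCI-H716. RPS6, the target of the S6 kinases, was at 810 and 938 against 924 and 1186 (log2 fold change 0.27, SE 0.18), RPL10, which joins the large subunit late, had 0.29 (SE 0.16), and RPL41, the smallest ribosomal protein, had 0.13 (SE 0.22). RPS27A, which is made as a fusion to ubiquitin, was nearly level in both lines, at 0.05 (SE 0.13) and 0.08 (SE 0.17).

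The lines were compared through the interaction of treatment and line over all 8 libraries. Of 31 members fitted, 2 had fewer than 10 counts on average in HCT116 and are not described further, and 0 were called, where the background was 0.0654% of 7642 genes. The unadjusted p was under 0.05 for 3 members (14.3% of all genes), and DESeq2 called 0, where it called 0.577% of all genes, with 2 unadjusted. These 3 were RPL5, RPSA, a small-subunit protein also known as a laminin receptor, and RPL15, a large-subunit protein. RPL5 was at 4597 and 4962 CPM in HCT116 controls and 4374 and 3832 after Z325, and higher after Z325 in NCI-H716. The difference between its log2 fold changes was 0.74 (SE 0.24, unadjusted p = 0.0102, adjusted p = 0.219 in edgeR). RPSA was at 1582 and 1642 against 1236 and 1465 in HCT116 and at 1059 and 1380 against 1338 and 2016 in NCI-H716, a difference of 0.71 (SE 0.27, adjusted p = 0.272). RPL15 differed by 0.43 (SE 0.19, adjusted p = 0.341). Across the 29 members tested in both lines, 20 had positive and 4 negative log2 fold changes in both. Spearman's rho of the fold changes was 0.35 and Pearson's r was 0.49, as a description over genes that share 8 libraries.

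The order of the fold changes went with the base composition of the transcripts. Over the 80 members in NCI-H716, Spearman's rho between log2 fold change and the GC content of the canonical transcript was -0.44, beside -0.29 over all genes, and over the 29 members in HCT116 it was -0.30, beside -0.25. The same rank correlation was -0.35 for control replicate 2 over control replicate 1 in NCI-H716, so a GC trend was also present between libraries of 1 group. Of the 40 members of higher GC content, 24 had a positive log2 fold change in NCI-H716, and of the 40 of lower GC content, 38 did. RPL36 and RPS15 are among the richest in GC, at 61.0% and 61.3%, and RPS3A is at 42.5%. The inferred fragment length also differed between the NCI-H716 libraries, at 232 and 259 bases in controls and 272 and 280.5 bases after Z325. The controls lay further from each other than control replicate 2 did from Z325 replicate 1.

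With an offset for 20 bins of GC content, chosen after the data were seen, the rank correlation over members became -0.06 in NCI-H716 and 0.09 in HCT116. The median log2 fold changes remained at 0.22 and 0.13, and 0 members were called in either line. RPS26, at 47.0% GC, was at -0.65 with and without the offset, and RPS4X at 0.58. RPL36, RPS15 and RPL29 moved to -0.33, -0.20 and -0.36. In HCT116, RPL8, which has the highest GC content at 63.6%, moved from -0.44 to -0.02, and RPL29 from -0.37 to 0.02.

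The levels of the mRNAs differed widely although the proteins are used in matched amounts. TPM corrects for length, so genes can be compared on it, with less certainty for the shortest transcripts. The canonical transcripts of RPS29, RPS27, RPS21 and RPL39 measure 295, 352, 358 and 390 bases, close to the inferred fragment lengths of 232 to 280.5 bases. The lengths behind TPM can differ from these, so other members may carry the same limit. For RPS21, Z325 replicate 1 was below both controls in CPM (599 against 642 and 609). In TPM it was above both (4009 against 3531 and 3888). In NCI-H716 controls, 80 of the 82 members were over 10 TPM, with a median of 1543 TPM and quartiles of 1023 and 2346 TPM. The highest was 87.0 times the lowest of these, the paralog RPL39L, to which matched amounts need not apply. Apart from the paralogs RPL39L and RPS27L, the lowest of the 80 was RPL28 at 293 TPM. RPL21, of the large subunit, led at 4920 ± 177 TPM (SD, n = 2), followed by RPS18 of the small subunit at 4280 ± 176, RPLP0 of the stalk at 4212 ± 426 and RPS2 at 3938 ± 354. The control values of RPL21 did not overlap those of RPS18, whereas RPS18, RPLP0 and RPS2 overlapped their neighbours in this order. The lowest of the 80 were RPL28 at 293 ± 27.0, RPS27L at 271 ± 28.8 and RPL39L at 56.5 ± 0.467 TPM. RPL28 and RPS27L did not differ beyond their spread. RPL3L, the striated muscle form of RPL3, had 8 and 3 counts in controls and 6 and 2 in treated cells. RPL10L, the testis form of RPL10, had 0 counts in 3 libraries and 1 in Z325 replicate 2. The order of levels was nearly the same in the treated cells (Spearman's rho 0.95 between group means over 82 genes).

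**Figure D3:**
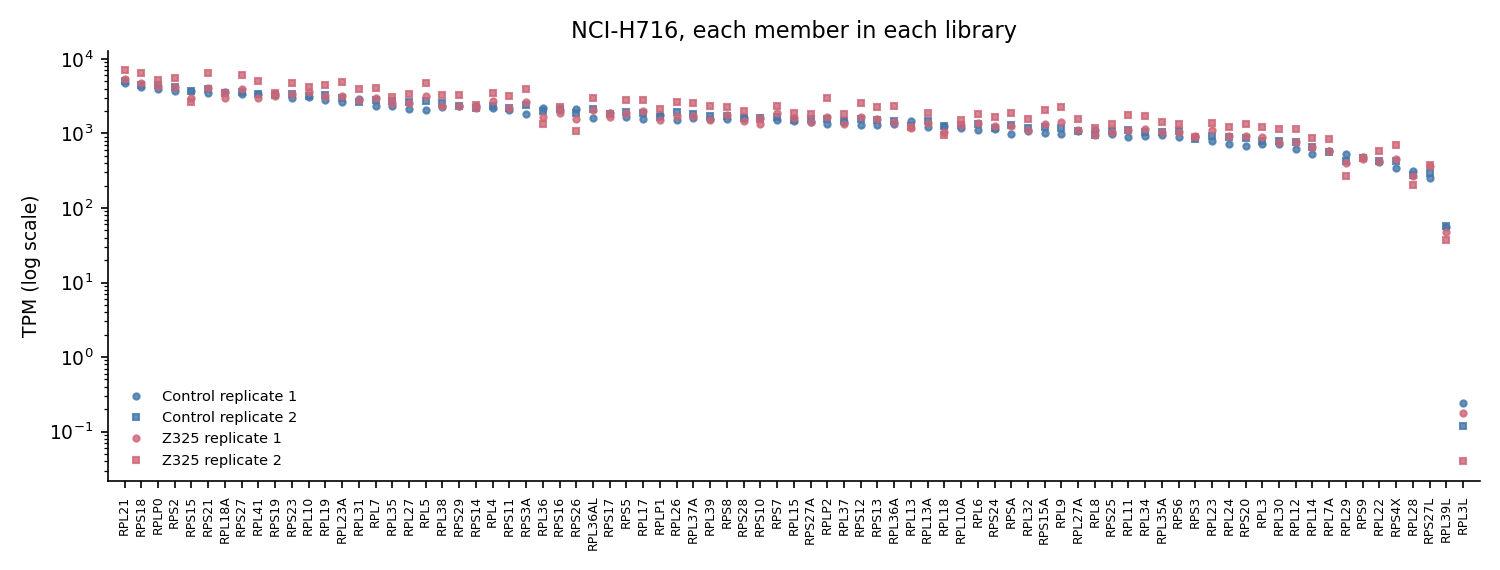
TPM (log scale, vertical axis) of each ribosomal protein gene in each NCI-H716 library, ordered by the control mean, from RPL21 at 4920 TPM down to RPL3L at 0.18 TPM, with RPL10L left out because its control level is 0. Most genes fall within a narrow band, and treated replicate 2 lies above the other libraries for most of the order.

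In HCT116 a level per length was computed from the counts as FPKM on the exon union, which understates genes with long rare exons. RPL7 was highest at 3436 ± 315 FPKM (SD, n = 2). RPL39L had 0 counts in all 4 libraries, the shallowest of which held 3434620 gene counts, and a count of 0 does not show absence. RPS18, second in NCI-H716, had 8 and 4 counts in HCT116 controls and 2 and 20 after Z325, and RPS10 had 72 and 47 against 76 and 7. RPS10 shares 31.5% of its exon bases with the read-through gene RPS10-NUDT3, and how reads that match several places were counted is not given in the sources used here, so the levels of RPS18, RPS10 and RPL39L are uncertain. Over the 31 members, Spearman's rho of the control levels between the lines was 0.25, from tables that were counted in different ways.

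Several members have a close paralog, and the share taken by the paralog of each pair was read per library on the length-corrected scale. RPS27 and RPL39 are among the shortest transcripts, so the shares of their pairs carry the limit given above for such genes. For RPL36A, Z325 replicate 1 was below both controls in CPM (347 against 384 and 363). In TPM it lay between them (1440 against 1341 and 1457), so the share of this pair is limited too. RPL36AL, a paralog of RPL36A, held 54.7% and 59.7% of the pair's TPM in NCI-H716 controls and 58.9% and 56.1% after Z325. RPS27L, a p53 target, held 6.83% and 7.42% of its pair with RPS27 and then 8.45% and 5.89%, so these groups overlapped. The gene itself was at 129 and 148 CPM in controls and 177 and 188 after Z325 (log2 fold change 0.40, SE 0.16, adjusted p = 0.255). In the list of p53 targets that holds it, 0 of 9 tested in NCI-H716 (RPS27L among them) and 0 of 6 in HCT116 were called, with medians of 0.16 and -0.25. RPL39L, a paralog most abundant in testis, held 3.48% and 3.22% of its pair with RPL39 in controls against 3.02% and 1.56% after Z325. Here the treated libraries were below the controls, and the log2 fold change of RPL39L was -0.44 (SE 0.20, adjusted p = 0.303).

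The balance of RPL22 and its paralog RPL22L1 differed between the lines' tables. In HCT116, RPL22L1 held 92.0% and 89.3% of the pair's FPKM in controls and 94.8% and 91.9% after Z325, whereas in NCI-H716 it held 8.13% and 10.6% of the pair's TPM and then 12.1% and 11.1%. The lines' tables were made separately, so no test was run on that difference, and in HCT116 a further 20.8% of the reads on RPL22 and its pseudogenes lay on the pseudogenes. RPL22L1 was at 615 and 426 CPM in HCT116 controls and 860 and 783 after Z325 (log2 fold change 0.66, SE 0.18, adjusted p = 0.0688 in edgeR, and 0.00578 in DESeq2). In NCI-H716 it was at 15.8 and 20.7 against 24.5 and 28.9 (log2 fold change 0.55, SE 0.23, adjusted p = 0.258). Both treated libraries were above both controls in each line. RPL26L1 was not called in either line, with log2 fold changes of 0.28 in HCT116 and -0.05 in NCI-H716.

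The list of ribosomal proteins with other symbols gave 1 call. RPL7L1, a nucleolar relative of RPL7 that acts in the assembly of the large subunit, fell in HCT116 from 439 and 420 CPM to 268 and 258 (log2 fold change -0.71, SE 0.12, adjusted p = 0.0186), and was at 306 and 282 against 275 and 260 in NCI-H716 (log2 fold change -0.13, SE 0.15). FAU, which encodes a small-subunit protein fused to a relative of ubiquitin, had a log2 fold change of -0.41 in NCI-H716 (SE 0.16, adjusted p = 0.242). The call of RPL7L1 was lost without control replicate 1 or 2, at -0.68 and -0.75. Those fits keep a lone control library and called a far smaller part of all genes than the main fit. In this list 1 of 4 tested genes was called in HCT116 and 0 of 6 in NCI-H716.

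Other mRNAs listed for a TOP start, among them elongation and initiation factors, had medians near those of the members, but their spread was not alike. In NCI-H716, 20 of 24 had a positive log2 fold change, with a median of 0.20 and 0 called. Both treated libraries were above both controls for 15 of these 24, against 29 of 80 members and 24.3% of all genes. In HCT116, 8 of 11 were positive, with a median of 0.10, and GAS5 was called. The upper quartile of the list there was 0.80, against 0.18 for the members. GAS5, a noncoding host of small nucleolar RNAs whose transcript begins like those of the ribosomal proteins, rose from 499 and 500 CPM to 1202 and 963 (log2 fold change 1.12, SE 0.14, adjusted p = 0.00674). Without control replicate 1 or 2 it was at 1.11 in both cases and missed the threshold. Those fits called a far smaller part of all genes than the main fit. In NCI-H716 GAS5 was at 183 and 204 against 265 and 292 (log2 fold change 0.52, SE 0.16, adjusted p = 0.170).

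The proteins of the mitochondrial ribosome are encoded by separate nuclear genes. In NCI-H716, 21 of 78 had a positive log2 fold change, the median was -0.22, and 46 had both treated libraries below both controls, where 25.1% of all genes did, with 0 called. In HCT116, 19 of 38 were positive, with a median of -0.02, near that of all genes. MRPS27, of the small mitochondrial subunit, fell there from 344 and 413 CPM to 192 and 195 (log2 fold change -0.97, SE 0.14, adjusted p = 0.0108). Without control replicate 2 it missed the threshold in edgeR, at -0.84, where far fewer genes of any kind were called. MRPL37, of the large one, fell from 1085 and 1443 to 821 and 783 (log2 fold change -0.66, SE 0.16, adjusted p = 0.0479). This call was lost in the like fits without control replicate 1, at -0.85, and without control replicate 2, at -0.44. It was also lost with GC offsets, at -0.32 (adjusted p = 0.238). The counts on the mitochondrial genome itself made up 9.40% and 8.77% in NCI-H716 controls and 7.92% and 7.14% after Z325 (exact p = 0.3333, the smallest possible).

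Chaperones and importers that escort single ribosomal proteins, such as TSR2 for RPS26 and GRWD1 for RPL3, were called in 0 of 9 cases in NCI-H716 and 0 of 3 in HCT116, with medians of -0.08 and -0.44. GRWD1 was at 40.6 and 34.8 CPM in controls and 22.7 and 15.4 after Z325 (log2 fold change -0.99, SE 0.23, adjusted p = 0.110). TSR2 was at 33.0 and 25.4 against 25.7 and 19.2 (log2 fold change -0.39, SE 0.23). Of the regulators of ribosomal protein mRNA, among them MYC, MTOR and LARP1, 0 of 11 in NCI-H716 and 0 of 5 in HCT116 were called, with medians of -0.23 and -0.19. A further list held 143 symbols of respiratory chain and ATP synthase subunits, and their starts were not examined for a tract. Its medians were -0.02 over 73 tested genes in NCI-H716 and 0.14 over 31 in HCT116, with 0 called in both.

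Reads of ribosomal protein genes can be shared with their many processed pseudogenes. Pseudogenes held 0.286% and 0.283% of HCT116 counts in controls and 0.276% and 0.532% after Z325, and 0.0729% to 0.116% in NCI-H716. The HCT116 library with the highest value was the shallow Z325 replicate 2. Of the 27 members with over 1000 counts and a listed pseudogene in HCT116, 3 had over 5% of their combined reads on pseudogenes, namely RPL22, RPL7 at 12.6% and RPL15 at 7.69%. In NCI-H716 it was 3 of 77, namely RPL13 at 6.99% and, of the members highest in TPM, RPS2 at 5.49% and RPL21 at 5.16%. With pseudogene counts added to their parent genes, 0 members were called in either line.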

How the data were processed

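Per the study's methods, reads were trimmed with TrimGalore, aligned to GRCh38 with STAR and quantified with RSEM, whereas the submitters' processing notes name Bowtie2 2.5.0, featureCounts and hg38. For HCT116 the authors deposited raw counts per gene in the layout of featureCounts, and 4 lines whose fields were incomplete were left out. For NCI-H716 the authors deposited RSEM expected counts, TPM and FPKM for each library. Expected counts were rounded to whole numbers, and GENCODE version 44 gave a symbol to 62666 of the 63241 gene identifiers.

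Each line was tested with edgeR 4.0.16 (R 4.3.3) by the quasi-likelihood test after TMM scaling and filterByExpr, with Benjamini-Hochberg adjustment over all genes and SE taken from the F statistic. A call is an adjusted p under 0.05. Design choices that differ from the study, which used a t-test on FPKM, follow from the deposited counts. The interaction used the genes in both tables. DESeq2 1.42.0, limma 3.58.1 with trend on log2(FPKM + 1) and log2(FPKM + 0.1), other scalings, filters, pseudogenes, the replicate block and each library left out were alternatives. FPKM of HCT116 was computed here from counts and exon length. Counts limit precision only in the rarest members, and intervals of counting do not cover amplification of few cells. Scripts were tested on simulated data.

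The members and lists were chosen with earlier results of these data known. Genes were named if called, if among the 5 largest or smallest log2 fold changes of a line or the 5 highest or lowest TPM, if of a known role or with a paralog, or if called in a neighbouring list. GRWD1, TSR2, FAU and RPS10 were named after their values were seen.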

Additional observations from a re-analysis of the deposited data

How the results depend on the processing

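In HCT116 the count of 0 members called in each direction held under DESeq2, both limma fits, library-size scaling, TMM without the members, no filter, a minimum of 10 counts, pseudogenes added, GC offsets and the replicate block. In NCI-H716 it held under the same alternatives except 2: without a filter 4 members were called higher and 2 lower, and with the replicate block 20 were called higher and 7 lower, in a fit that called 16.9% of all genes. RPS26, RPL36, RPS3A, RPS4X, RPL5 and RPL3 were called in both. Replicate numbers name no shared day or culture, and same-numbered libraries deviated together with a correlation of -0.03 in HCT116 and 0.20 in NCI-H716 over 2 pairs, so the block is given only here and changed no count in HCT116 or in the interaction. Leaving out each library in turn gave 0 to 5 members higher and 0 to 2 lower in HCT116, 0 to 26 higher and 0 to 4 lower in NCI-H716, and 0 to 1 in the interaction (RPS18, without HCT116 Z325 replicate 1). Each such fit takes the lone library of its group to vary as the other groups did. RPS18 is among the 2 members with fewer than 10 counts on average in HCT116. It had 8 and 4 counts in controls and 20 in the shallow Z325 replicate 2, so nothing is read from its call.

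Log2 fold changes turned sign in 20 of 650 gene values recomputed, and not all of these were near 0 in the main fit. There RPL29 was at -0.37 in HCT116 and RPL8 at -0.22 in NCI-H716. Under GC offsets RPL11, RPL29 and RPS14 in HCT116 were at 0.069, 0.018 and 0.11, and RPL8, RPS19, RPL39 and RPS27A in NCI-H716 at 0.17, 0.12, -0.017 and -0.022. Under limma with a pseudocount of 1 or 0.1, RPL8, RPS14, RPS19 and RPL26L1 in NCI-H716 were at 0.10, 0.066, 0.070 and 0.010 with either. RPS14 in HCT116 was at 0.018 under DESeq2, 0.0041 with TMM without the members and 0.0037 with pseudogenes added, RPS27A there at -0.0062 without a filter, and RPLP1 in NCI-H716 at -0.0037 with the replicate block. Leaving out 1 library turned further signs: in HCT116, RPL11 ranged from -0.19 to 0.11, RPL22 from -0.12 to 0.39, RPS14 from -0.25 to 0.23, RPS27 from -0.051 to 0.60 and RPS27A from -0.029 to 0.12. In NCI-H716, RPL26 ranged from -0.044 to 0.52, RPL26L1 from -0.10 to 0.011, RPL31 from -0.035 to 0.48, RPL36A from -0.092 to 0.56, RPL39 from -0.22 to 0.39, RPL41 from -0.25 to 0.45, RPL8 from -0.40 to 0.0031, RPLP1 from -0.17 to 0.18, RPLP2 from -0.13 to 0.45, RPS14 from -0.15 to 0.049, RPS19 from -0.15 to 0.0064, RPS21 from -0.048 to 0.64, RPS27A from -0.080 to 0.25 and MRPS27 from -0.29 to 0.13. The calls of GAS5, MRPL37, MRPS27 and RPL7L1 in HCT116 were lost under limma with a pseudocount of 0.1 (log2 fold changes 1.07, -0.68, -0.99 and -0.74, adjusted p = 0.0540, 0.101, 0.0787 and 0.0776), and those of the last 3 also with a pseudocount of 1. Limma called 0.570% of all genes with a pseudocount of 0.1 and 0.724% with 1. The calls were lost too without control replicate 1 or 2, except MRPS27 without control replicate 1. Those fits keep a lone control library and called a far smaller part of all genes than the main fit. That of MRPL37 was lost under GC offsets at -0.32 (adjusted p = 0.238). The cause was not tested. RPL22L1 in HCT116 passed the threshold under DESeq2, both filters and the replicate block. With 2 libraries a group and median SE of 0.14 in HCT116 and 0.18 in NCI-H716, member log2 fold changes as far from 0 as 0.62 and -0.65 did not pass the threshold.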
